A study of Mus musculus with 12 samples.

Results

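Interferon-stimulated genes are the genes that a cell switches on after an interferon binds its receptor, and 42 of them were described here by name across the lungs of 12 mice. The symbols were fixed as a list by name and not by a level measured here, and 40 of them had values among the 17920 genes of the count tables. All 40 passed the filter on low values that left 13735 genes for testing. They comprised 10 genes of the Ifit and Oas families, 9 GTPases of the Gbp and IRG families, and 21 other members. Mx1 and Mx2 also belong to the list and were not analysed here.

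The mice were male BALB/c animals of 6 to 8 weeks, kept in 4 groups. The control group received no agent that the labels name. The LPS group received lipopolysaccharide, a cell-wall component of Gram-negative bacteria, at 50 µL of 1 µg/µL, the bLF group received 200 mg/kg of bovine lactoferrin (a protein of milk that binds iron) each day, and the LPS+bLF group received both. Lungs were taken after 14 days of modelling, and 3 of the 6 mice of each group were sequenced, so each group had 3 libraries of polyadenylated RNA from whole lung. The route and the day of LPS are not given in the sources used here. The study's title places it in acute lung injury, and the comparisons ask which lung transcripts differ after LPS and whether bLF alters them.

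Interferons reach 2 sets of genes through 2 related routes. Type I interferons signal through Ifnar1 and Ifnar2 to a complex that holds Stat2 and Irf9, which binds a DNA element called ISRE and turns on the antiviral Ifit, Oas, Isg15 and Rsad2 genes. Interferon gamma, made mainly by NK cells and T cells, signals through Ifngr1 and Ifngr2 and, by way of an element called GAS, turns on Irf1 and the GTPases that attack intracellular microbes. LPS reaches both routes by way of Tlr4 in macrophages, and the sets overlap, since many genes carry both elements or answer to Irf1 and Irf7.

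The 2 elements could be seen in the promoters of the members. RefSeq (GRCm38.p6) gave a window from 250 bases before to 50 bases after the start for 31 of the 40 members. No window was used for Oas2, Gbp6, Iigp1, Usp18, Dhx58, Zbp1, Parp9, Parp14 and Rtp4. The core letters GAAANNGAA of an ISRE, searched on both strands, were in 20 of the 31 windows (64.5%), against 9.76% of 27025 genes with such a window. The core letters TTCNNNGAA of a GAS, which read the same on both strands, were in 9 of the 31 (29.0%), against 9.55%. Of the 7 GTPases with a window all 7 held the ISRE letters and 4 also held the GAS letters. Of the 9 Ifit and Oas genes 6 held the ISRE letters and 2 the GAS letters. Oas1a was 1 of these 2, and its GAS letters lie outside the stretch printed below. A match to these letters is a description of the sequence and not a bound site. The stretches below lie 5′ to 3′ on the gene's strand, with every match in capitals (a run longer than 9 capitals is overlapping or adjoining matches), and were chosen to show ISRE letters alone, both sets of letters, and GAS letters alone.
Isg15 (chr4:156200864-156200908, minus strand): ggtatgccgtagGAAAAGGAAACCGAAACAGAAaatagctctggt
Oas3 (chr5:120777708-120777746, minus strand): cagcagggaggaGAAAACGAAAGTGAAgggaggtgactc
Oas1a (chr5:120907526-120907557, minus strand): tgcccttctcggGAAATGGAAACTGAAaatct
Oas1g (chr5:120887614-120887643, minus strand): tgcccttctcggGAAATGGAAACTGAAaat
Ifit1 (chr19:34640768-34640825, plus strand): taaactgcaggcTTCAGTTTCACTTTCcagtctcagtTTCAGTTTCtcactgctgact
Gbp2 (chr3:142620593-142620625, plus strand): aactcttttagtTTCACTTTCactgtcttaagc
Igtp (chr11:58199499-58199542, plus strand): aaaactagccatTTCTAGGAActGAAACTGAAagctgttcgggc
Irgm2 (chr11:58214890-58214933, plus strand): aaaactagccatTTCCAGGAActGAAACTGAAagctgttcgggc
Bst2 (chr8:71537576-71537620, minus strand): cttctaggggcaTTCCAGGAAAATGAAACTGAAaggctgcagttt
Irf1 (chr11:53769912-53769944, plus strand): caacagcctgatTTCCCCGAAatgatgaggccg
Igtp and Irgm2 carried a GAS match followed by an ISRE match in stretches that shared 43 of 44 bases and differed by T16C, counted from 1 at the 5′ end of the Igtp stretch. Oas1a and Oas1g shared all 30 bases compared, and Ifit3 and Ifit3b shared all 86 bases of theirs. The counts of Oas1a, Oas1g, Ifit3 and Ifit3b were not whole in 12 of the 12 libraries, so the division of counts within the pairs Oas1a and Oas1g, and Ifit3 and Ifit3b, is uncertain. Those of Igtp and of Irgm2 were not whole in 1 library each. In Bst2, the 1 member where the 2 kinds overlapped, the GAS letters ran into the ISRE letters.

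The libraries were even in depth, with total counts from 16714327 to 17820645. LPS replicate 1 stood apart. It had 3067 genes at 0, against 1499 to 1963 in the other 11. The lung markers fixed for epithelium and endothelium were present in every library, but RNA of other tissues was also present in some, with brown fat markers summing to 1760 FPKM in LPS+bLF replicate 2, 1090 in replicate 1 of control and 780 in replicate 1 of bLF, against 6.88 to 117 in the other 9. Cardiac muscle markers summed to 3900 FPKM in bLF replicate 1, 2960 in LPS+bLF replicate 2 and 739 in control replicate 1, against 45.5 to 488 in the other 9. In LPS+bLF replicate 3, skeletal muscle markers summed to 3230 FPKM and squamous epithelium markers to 774. The part of this RNA in the members' levels was not tested. Levels are given as the deposited FPKM, which is a level per length of transcript. Orders of libraries, overlaps of groups and fold changes were taken from counts scaled with TMM factors. Relative to TMM-scaled counts, FPKM read 22.3% lower in LPS replicate 1 and 15.3% lower in control replicate 2 than in LPS replicate 2, and 0.2 to 12.2% lower in the others.

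The 3 mice given LPS alone did not share an interferon pattern. LPS replicate 1 had the lowest level of all 12 libraries for 30 of the 40 members, where 34.6% of all tested genes were lowest. LPS replicate 3 had the highest level for 31 of the 40, where 7.76% of all tested genes were highest. Both held for 25 members, against 4.33% of all genes. LPS replicate 2 was at neither end for any member. LPS replicate 1 was also the highest library for 28.2% of all tested genes, and for 1 member. TMM factors bring the libraries to a common scale, so these orders cannot show whether it was low for genes at large. On FPKM, 30 members were lowest in LPS replicate 1 and 32 highest in LPS replicate 3, where the shares of all genes were 43.6% and 8.98%. In bulk tissue, fewer cells of a type and less RNA per cell cannot be told apart. Whether RNA quality or library preparation had a part in LPS replicate 1 was not tested.

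**Figure D1:**
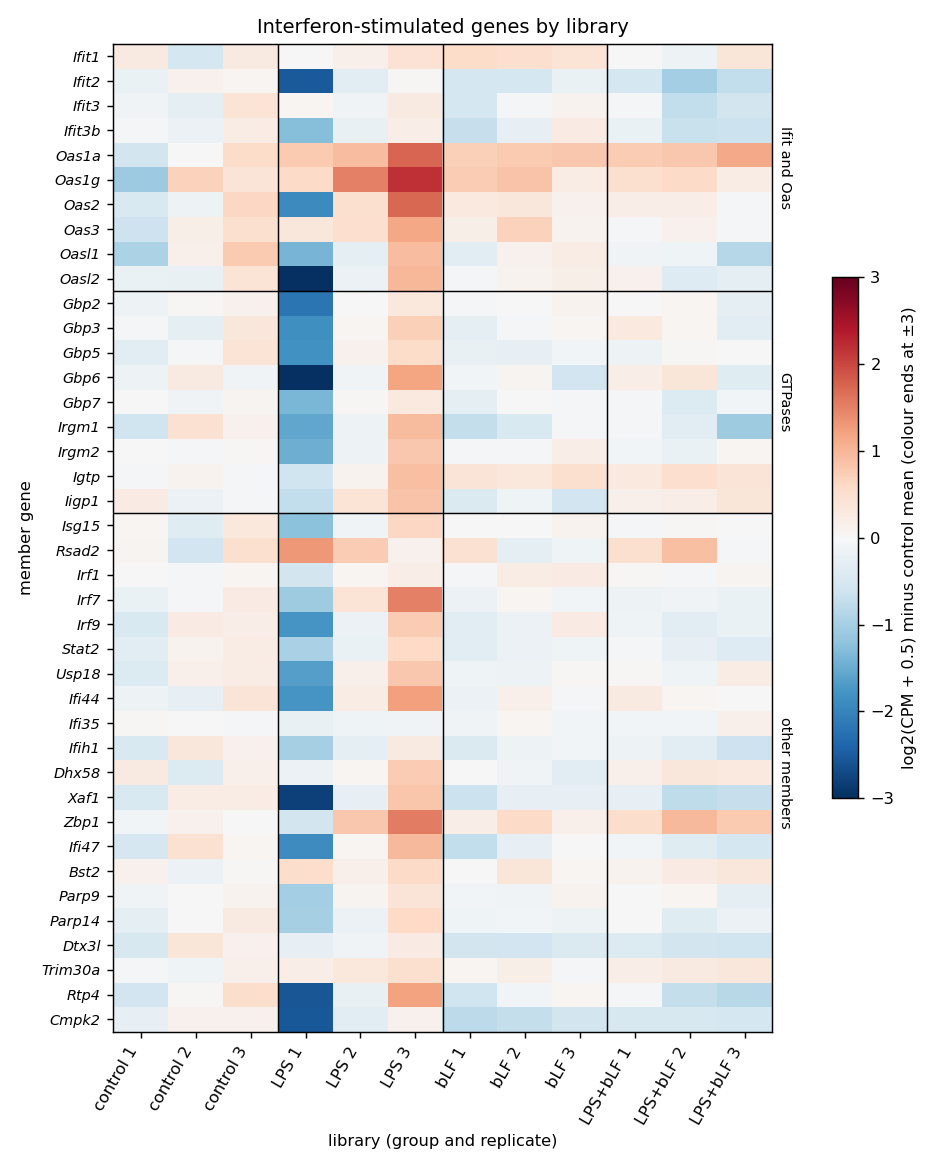
Levels of the 40 members in each of the 12 libraries, as log2(CPM + 0.5) minus the mean of the 3 controls, with colour ends at ±3 and lines between groups of libraries and groups of genes. LPS replicate 1 is blue for most rows and LPS replicate 3 red, while the 3 bLF and 3 LPS+bLF libraries are pale.

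Among the Oas family, whose enzymes make the 2′-5′ oligoadenylate that activates RNase L, Oas1a (chr5:120896256-120907544) had the clearest difference. It read 4.88, 6.17 and 10.5 FPKM in control, 9.81, 14.2 and 23.9 in LPS, 11.2, 11.70 and 11.74 in bLF, and 11.9, 11.3 and 14.7 in LPS+bLF. On the TMM scale each LPS library, replicate 1 included at 166% of the control mean, was above each control. Oas1g, its close copy (chr5:120876142-120887613), read 0.34, 1.62 and 1.4 FPKM in control and 1.34, 3.59 and 5.56 in LPS. Its bLF libraries read 1.87, 1.99 and 1.13 FPKM and its LPS+bLF libraries 1.49, 1.5 and 1.13, all below LPS replicates 2 and 3.

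Oasl2 (chr5:114896926-114912245), an Oas-like protein, had the widest gap between libraries. It read 17.97, 14.8 and 27.0 FPKM in control and 0.58, 18.3 and 39.2 in LPS. LPS replicate 1 held 24 counts of Oasl2, 3.51% of the control mean, and LPS replicate 3 stood 56.0 times above it. The bLF libraries read 18.6, 20.5 and 21.1 FPKM and the LPS+bLF libraries 21.1, 13.8 and 14.9, so 11 of the 12 libraries lay between 13.8 and 39.2. The ratio of Oas1a to Oasl2 was 16.9 in LPS replicate 1 and 0.272 to 0.984 in the other 11. Genes of 1 family thus stood at opposite sides of the control level in the same library.

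The Ifit genes, whose products bind foreign RNA, also differed in LPS replicate 1, where 2 were near the control level and 2 below it. Ifit1 (chr19:34640889-34650009) read 8.63, 4.14 and 8.42 FPKM in control, 5.62, 8.02 and 9.16 in LPS, 9.97, 9.56 and 8.71 in bLF, and 6.66, 5.59 and 8.32 in LPS+bLF. Ifit3 (chr19:34583119-34588982) read 24.3, 18.4 and 34.3 FPKM in control, 22.0, 24.8 and 30.2 in LPS, 17.5, 23.6 and 25.4 in bLF, and 24.5, 13.8 and 16.1 in LPS+bLF. Neither was low in LPS replicate 1, at 97.7% and 103% of the control mean. Ifit2 read 2.48, 2.73 and 2.96 FPKM in control and 0.30, 2.32 and 2.81 in LPS, and Ifit3b 3.36 FPKM in LPS replicate 1 against 5.94 to 12.4 elsewhere. The ratio of Ifit3 to its copy Ifit3b was 6.54 in LPS replicate 1 and 2.16 to 2.77 in the other 11 libraries, and that of Ifit1 to Ifit2 was 18.7 against 1.52 to 5.55. The first of these ratios is limited by the uncertain division of counts between Ifit3 and Ifit3b.

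All 9 GTPases were lowest in LPS replicate 1 and highest in LPS replicate 3. They were among the 25 of the 40 members with this order. Gbp2 (chr3:142620663-142638008), a guanylate-binding protein that coats pathogen vacuoles, read 16.5, 16.0 and 19.5 FPKM in control, 2.97, 18.8 and 21.6 in LPS, 16.8, 17.03 and 17.9 in bLF, and 17.6, 16.8 and 13.5 in LPS+bLF. Gbp5, which promotes inflammasome assembly, read 0.73, 0.79 and 1.33 FPKM in control, 0.11, 1.09 and 1.43 in LPS, 0.77, 0.74 and 0.83 in bLF, and 0.81, 0.88 and 0.87 in LPS+bLF. Apart from LPS replicate 1 the libraries lay between 13.5 and 21.6 FPKM for Gbp2 and between 0.73 and 1.43 for Gbp5.

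The IRG GTPases, which act on vacuoles around intracellular parasites, showed the same order. Igtp (chr11:58199556-58207592) read 16.2, 15.1 and 15.4 FPKM in control, 8.43, 17.9 and 29.6 in LPS, 20.5, 19.3 and 21.2 in bLF, and 19.2, 20.9 and 19.6 in LPS+bLF. Irgm1, a regulator of the other IRG proteins, read 5.31, 9.14 and 8.65 FPKM in control, 2.0, 7.24 and 14.6 in LPS, 4.59, 5.51 and 7.0 in bLF, and 7.25, 5.58 and 3.38 in LPS+bLF. Iigp1 read 5.59, 3.51 and 4.43 FPKM in control, 2.12, 6.36 and 8.25 in LPS, 3.26, 3.98 and 2.83 in bLF, and 4.99, 4.84 and 5.57 in LPS+bLF. In each of these genes LPS replicates 1 and 3 bracketed every other library. Gbp6 had the widest span of the 9, at 0.18 FPKM in LPS replicate 1 and 6.20 in LPS replicate 3, 28.0 times apart on the TMM scale.

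**Figure D2:**
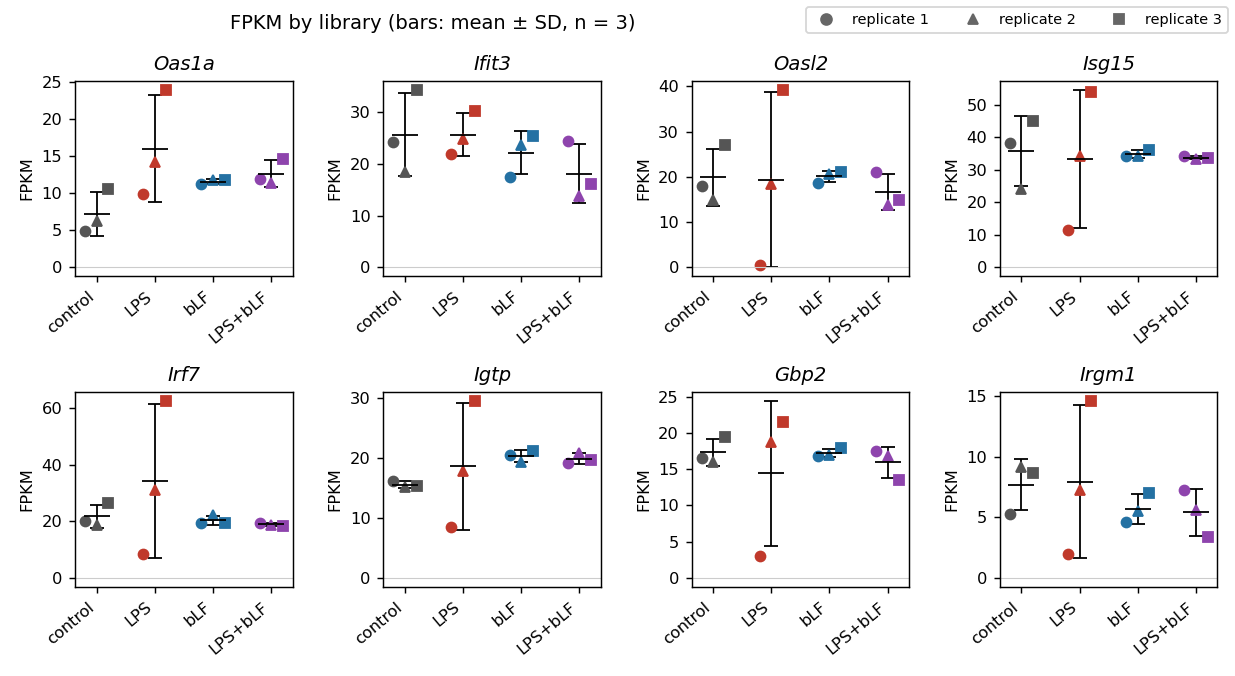
FPKM of 8 members in each library, with the 3 replicates of a group as a circle, triangle and square and bars for the mean ± SD (n = 3). The LPS replicates spread from 0.58 to 39.2 FPKM for Oasl2 and from 8.56 to 62.8 for Irf7, while the bLF and LPS+bLF replicates of Irf7 lie between 18.4 and 22.1.

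The transcription factors of the response differed in how far they followed. Irf7 (chr7:141263183-141266499), which drives the second wave of type I interferon, read 20.2, 18.9 and 26.6 FPKM in control, 8.56, 31.2 and 62.8 in LPS, 19.6, 22.1 and 19.5 in bLF, and 19.6, 18.9 and 18.4 in LPS+bLF. LPS replicates 2 and 3 were above every other library for Irf7 and LPS replicate 1 below every other. Stat2, a factor of the type I complex, read 8.77, 9.96 and 12.4 FPKM in control, 4.29, 9.55 and 15.7 in LPS, 8.24, 8.98 and 8.95 in bLF, and 10.0, 8.09 and 7.51 in LPS+bLF. Irf1, the factor that interferon gamma induces, varied less, at 69.7, 55.3 and 69.3 FPKM in control, 36.6, 71.5 and 74.1 in LPS, 64.3, 75.5 and 73.6 in bLF, and 66.2, 57.9 and 66.0 in LPS+bLF. Usp18, the protease that removes Isg15 and damps the type I receptor, read 6.49, 8.27 and 9.94 FPKM in control, 1.93, 9.71 and 14.6 in LPS, 7.38, 7.15 and 7.99 in bLF, and 8.38, 6.86 and 9.15 in LPS+bLF.

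Of the antiviral effectors, Isg15 (chr4:156199424-156200818), a ubiquitin-like protein, read 38.3, 24.1 and 45.1 FPKM in control, 11.5, 34.3 and 54.0 in LPS, 34.2, 34.1 and 36.1 in bLF, and 34.3, 33.4 and 33.6 in LPS+bLF. Bst2 (chr8:71534255-71537472), the tether that holds budding virus at the membrane, was the most abundant member, with 218, 150 and 197 FPKM in control, 217, 220 and 278 in LPS, 189, 239 and 187 in bLF, and 203, 207 and 225 in LPS+bLF. Bst2 was not low in LPS replicate 1, at 144% of the control mean on the TMM scale. Rsad2, named after its values were seen, went furthest in that direction, since LPS replicate 1 was its highest library at 2.17 FPKM against 0.56 to 1.88 in the other 11.

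In LPS replicate 1, 11 of the 40 members stood under 25% of the control mean (9.6% of all tested genes), among them Oasl2, Gbp6, Xaf1, Rtp4, Ifit2 and Cmpk2. Another 14 stood at 25 to 50%, 4 at 50 to 75% and 4 at 75 to 100%. The 7 at or above the control mean were Ifit3, Oas1a, Oas1g, Oas3, Rsad2, Bst2 and Trim30a, where 45.0% of all genes were. In LPS replicate 3, 23 members exceeded 1.5 times the control mean (5.93% of all genes). Of the 20 members with ISRE letters 12 were lowest in LPS replicate 1, and of the 11 without them 10 were.

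The median spread between mice was widest in the LPS group. The median SD over the 40 members, on the log2 scale, was 0.34 in control, 0.91 in LPS, 0.15 in bLF and 0.18 in LPS+bLF, where over all genes it was 0.26, 0.41, 0.18 and 0.22. Without LPS replicate 1 the LPS value was 0.48 over the members, 0.48 over the Ifit and Oas genes, 0.47 over the GTPases and 0.14 over all genes. LPS was the widest group for 32 of the 40 members (80.0%), against 56.9% of all genes. All 9 GTPases had their widest group in LPS, and 5 of the 10 Ifit and Oas genes did. Ifit1, with an SD of 0.21 in LPS and 0.46 in control, was one of the others.

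Markers of other cells also differed between the LPS libraries. The 10 markers of NK and cytotoxic lymphocytes, which include Gzma, Nkg7 and Prf1, summed to 10.5, 264 and 231 FPKM in LPS, against 59.2 to 73.6 in control, 70.5 to 101 in bLF and 77.8 to 94.9 in LPS+bLF, and their defining genes Gzmb and Klre1 were at 0 in LPS replicate 1. T cell markers (9 of 10 with values) summed to 32.0, 108 and 110 FPKM in LPS and 54.5 to 78.2 in control. They summed to 55.9 to 83.8 FPKM in bLF and 91.4 to 165 in LPS+bLF. In LPS replicate 1 Cd3e was at 0, while Cd3d stood at 112% and Cd8b1 at 97.3% of the control mean on the TMM scale. The rest of the T cell markers stood there at 9.69 to 69.3%. B cell markers summed to 45.3, 168 and 152 FPKM in LPS, 115 to 205 in control, 74.5 to 199 in bLF and 227 to 584 in LPS+bLF. Of these 8, Ms4a1 was at 0 in LPS replicate 1, while Pax5 stood at 93.9% and Cr2 at 87.1% of the control mean. The rest of the B cell markers stood there at 2.57 to 69.5%. Markers of plasmacytoid dendritic cells summed to 51.5, 101 and 120 FPKM in LPS and 95.4 to 117 in control. They summed to 89.5 to 282 FPKM in bLF and 92.1 to 273 in LPS+bLF. Cox6a2 made up 235 of the 282 FPKM (bLF replicate 1) and 205 of the 273 (LPS+bLF replicate 2). These 2 libraries also had the highest cardiac muscle sums. In LPS replicate 1 Cox6a2 read 7.65 FPKM, against 46.6 to 235 elsewhere. Of these 8, Klk1 was at 0 there, as was Ccr9, which read 0.01 to 0.24 FPKM elsewhere. Tcf4 stood there at 200% of the control mean, with its highest FPKM. Irf8 stood at 77.4%, Bcl11a at 61.6%, Spib at 37.6% and Siglech at 17.3%. Conventional dendritic cell markers summed to 9.8, 26.8 and 23.6 FPKM in LPS and 15.3 to 18.8 in control. They summed to 13.8 to 16.4 FPKM in bLF and 19.2 to 24.3 in LPS+bLF. Of these 7, Cd209a was at 0 in LPS replicate 1, and Xcr1, Ccr7 and Clec9a stood at 7.64, 23.4 and 68.5% of the control mean. Zbtb46, at 125% and with its highest FPKM there, and Flt3, at 122%, were not low. By sum, all 5 of these lymphocyte and dendritic cell lists were lowest in LPS replicate 1. Some genes of the T cell, B cell and dendritic cell lists were not. Neutrophil markers summed to 1580 FPKM in LPS replicate 1, 273 and 325 in the other LPS libraries and 192 to 625 in control. Most of the 1580 came from S100a9 (607 FPKM) and Retnlg (594 FPKM). These genes, Mmp8, Mmp9, Ngp and Camp had their highest FPKM in LPS replicate 1. By contrast, S100a8, Csf3r, Cxcr2 and Ly6g lay there within the range of the controls in FPKM. Markers of monocytes and interstitial macrophages summed to 275, 335 and 429 FPKM in LPS, 163 to 224 in control, 209 to 219 in bLF and 208 to 327 in LPS+bLF, and none of the 10 was at 0. Alveolar macrophage markers (9 of 10 with values) went both ways in LPS replicate 1. Marco read 249 FPKM there against 0.24 to 36.4 elsewhere, and Krt79 and Chil3 stood at 912% and 518% of the control mean. The rest of that list, Fabp4, Siglecf, Pparg, Ear2, Ear1 and Car4, stood there at 6.63 to 87.3%. The part of these cells in the members' levels was not tested.

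The ligand and receptors were given next. Of 21 interferon ligand genes listed, only Ifng was analysed here, and it did not pass the filter. It read 0.37, 0.36 and 0.06 FPKM in control, 0, 0.84 and 0.76 in LPS, 0.12, 0.18 and 0.35 in bLF, and 0.35, 0.29 and 0.23 in LPS+bLF, with a count of 0 in LPS replicate 1 that allows a level of up to 0.179 CPM (3 counts of the total, for counting error only). The receptor subunit Ifnar1 read 3.53 FPKM in LPS replicate 1 and 5.82 to 8.75 in the other 11 libraries, and Ifngr1 read 9.62 against 24.0 to 43.2. Both receptor subunits were lowest in LPS replicate 1.

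Comparing LPS with control, 4 of the 40 members read higher at an unadjusted p under 0.05, namely Oas1a, Oas1g, Bst2 and Trim30a (5.52% of all tested genes), and 0 members read lower at that p (1.62% of genes). By edgeR's quasi-likelihood test with Benjamini-Hochberg adjustment over all genes, 0 of the 40 members were called at an adjusted p under 0.05, and neither was any other gene (0.0%). DESeq2 called 1 member, Oas1a, among 138 genes (1.0%). The log2 fold change of Oas1a was 1.18 ± 0.31 (SE) with an adjusted p of 0.369 by edgeR and 1.2 ± 0.33 with 0.0369 by DESeq2. Oas1g was higher by 1.61 ± 0.58 (adjusted p = 0.629 by edgeR) and Bst2 by 0.43 ± 0.17 (adjusted p = 0.655). Ifi35 (-0.16 ± 0.13) and Ifit2 (-0.62 ± 0.52) had the smallest p among members that read lower, with adjusted p values of 0.692 and 0.696 by edgeR.

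Within the type I arm the log2 fold changes ran from -0.62 to 1.61, and the difference between its families was not tested. They were 1.18, 1.61, 0.70 and 0.72 for Oas1a, Oas1g, Oas2 and Oas3, -0.12 and -0.06 for Oasl1 and Oasl2, and 0.17, -0.62, 0.06 and -0.33 for Ifit1, Ifit2, Ifit3 and Ifit3b. The median was 0.11 over the 10 Ifit and Oas genes, 0.01 over the 9 GTPases, 0.02 over all 40 members and -0.04 over all tested genes. No LPS library overlapped the controls on the TMM scale for Oas1a, Bst2 and Trim30a (higher, 4.87% of genes) and for Ifi35 (lower, 4.59%). On the FPKM scale all 4 overlapped, and 0 members stood apart in either direction (4.0% of genes higher and 3.92% lower). LPS replicate 1 read 9.81 FPKM for Oas1a where the highest control read 10.5, 217 against 218 for Bst2, and 3.08 against 3.71 for Trim30a.

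Leaving out LPS replicate 1 changed this picture in size. With LPS replicates 2 and 3 alone, 35 of the 40 members read higher than control, as did 5782 of all 13735 tested genes. The medians were 0.40 for Ifit and Oas genes and 0.42 for GTPases, and the median of all genes stayed at -0.04. The members with an unadjusted p under 0.05 numbered 10, all higher (3.83% of genes, with 1.17% lower), namely Igtp, Zbp1, Irf7, Oas2, Oas1g, Oas3, Iigp1, Ifi44, Trim30a and Oas1a. By edgeR 0 members and 25 genes (0.182%) were then called, and the smallest adjusted p of a member was 0.0846, for Zbp1, a sensor of Z-form nucleic acid, at 1.27 ± 0.24. Irf7 stood at 1.07 ± 0.26 with an adjusted p of 0.227. Leaving out LPS replicate 3 in its place turned the medians the other way, to -0.21 for Ifit and Oas genes and -0.70 for GTPases, again with 0 members called by edgeR.

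**Figure D3:**
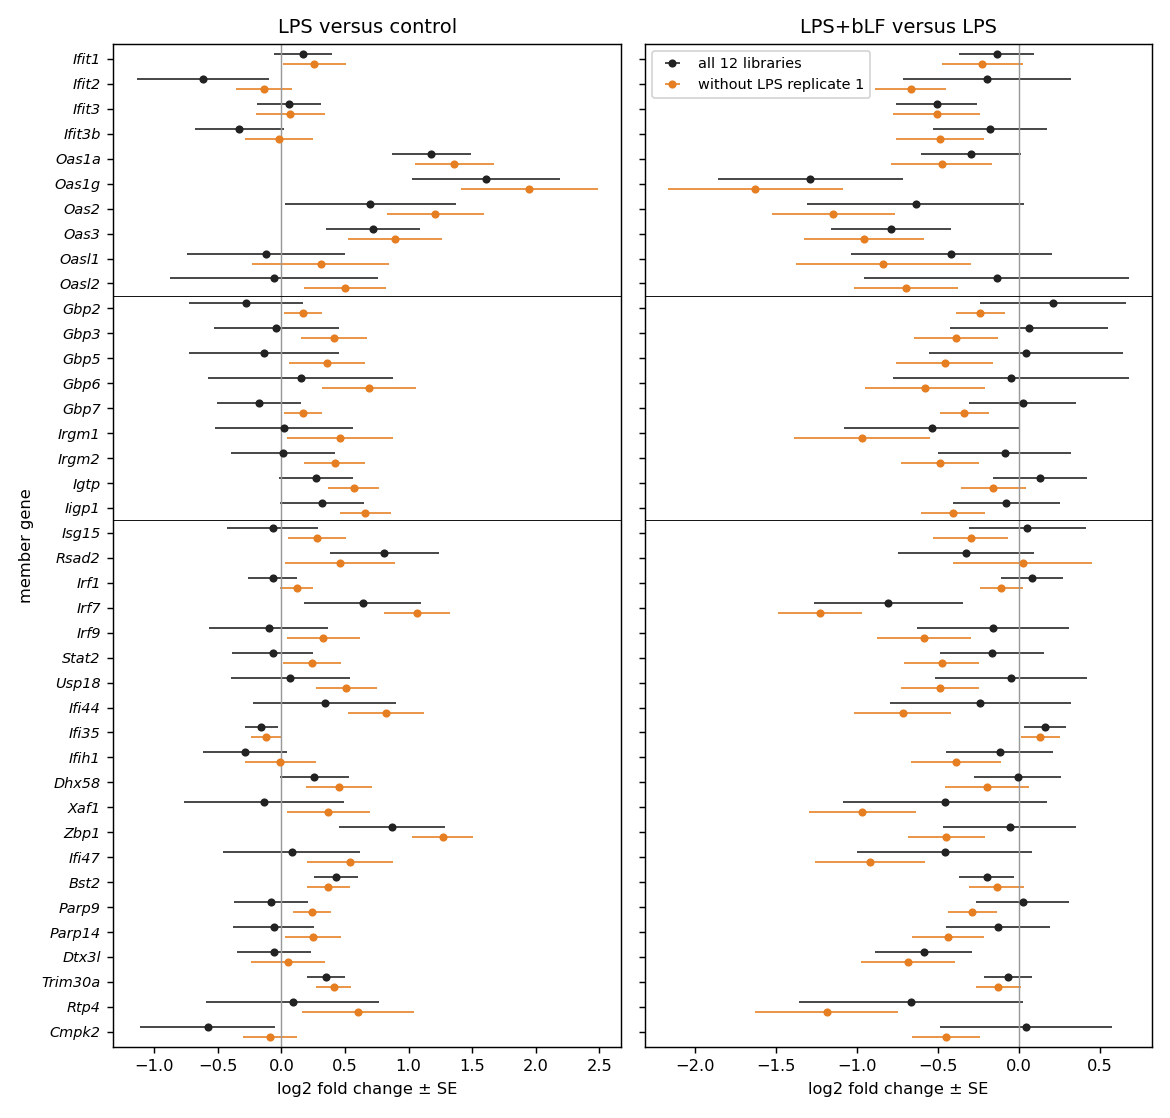
Log2 fold change ± SE of each member in LPS versus control (left) and LPS+bLF versus LPS (right), from edgeR with all 12 libraries (black) and without LPS replicate 1 (orange). Without that library the 9 GTPases shift to the right of 0 on the left panel and to the left of 0 on the right panel, and Oas1a and Oas1g keep their side.

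Comparing LPS+bLF with LPS alone, 30 of the 40 members read lower, as did 7151 of all 13735 tested genes. The median log2 fold change was -0.14 over the members, against -0.02 over all genes. The 10 Ifit and Oas genes all read lower, with a median of -0.36, while 5 of the 9 GTPases read higher and their median was 0.02. Oas1g, at -1.29 ± 0.57, was the 1 member with an unadjusted p under 0.05 (3.65% of genes read lower at that p, and 3.27% higher). By edgeR 0 of the 40 were called (0.0% of genes), the adjusted p of Oas1g being 0.689, and DESeq2 called 0 members and 7 genes (0.051%). Oas3 read 0.47, 0.76 and 1.1 FPKM in control, 0.80, 1.17 and 1.82 in LPS, 0.85, 1.25 and 0.78 in bLF, and 0.70, 0.77 and 0.68 in LPS+bLF, a log2 fold change of -0.79 ± 0.37 (adjusted p = 0.689 by edgeR). The LPS+bLF libraries lay below the LPS libraries without overlap for Oas1g, Oas3 and Dtx3l (5.19% of genes) and above them for Ifi35 (4.99%), on the TMM scale. On the FPKM scale Oas3 alone stood apart (4.91% of genes), and Oas1g, Dtx3l and Ifi35 overlapped. Gbp2, second in p among members that read higher, stood at 0.21 ± 0.45.

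This comparison also turned on LPS replicate 1. Without it 38 of the 40 members read lower in LPS+bLF than in LPS, as did 6772 of all 13735 tested genes. The medians were -0.69 for Ifit and Oas genes and -0.41 for GTPases, against 0.01 over all genes. An unadjusted p under 0.05 was reached by 11, all lower (4.16% of genes, with 4.74% higher), led by Irf7 at -1.23 ± 0.26. No member was called by edgeR (2 genes, 0.0146%), and the adjusted p of Irf7 was 0.516. Without LPS replicate 3 the medians were 0.10 and 0.59, again with 0 members called. LPS versus control and LPS+bLF versus LPS share the LPS libraries, so the opposite signs of the 2 comparisons are not separate evidence.

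For bLF against control, 0 members and 0 genes (0.0%) were called by edgeR, and DESeq2 called 0 members and 1 gene (0.00728%). Oas1a was again the member with the smallest p, at 0.73 ± 0.31 (unadjusted p = 0.0386, adjusted p = 1.0 by edgeR, 0.714% of genes higher and 0.663% lower at that p). Ifit1 was higher by 0.46 ± 0.23, and Dtx3l and Cmpk2 were lower, at -0.65 ± 0.30 and -0.74 ± 0.53, all with an adjusted p of 1.0. Cmpk2, a mitochondrial nucleotide kinase, read 2.62, 2.95 and 3.35 FPKM in control and 1.67, 1.71 and 1.89 in bLF, with no overlap, as for Ifit2 (lower, 4.57% of genes). Ifit1, Oas1a, Igtp and Zbp1 were higher without overlap (4.34%). These 6 also stood apart on the FPKM scale, where Dtx3l joined those that were lower. Igtp, at 19.3 to 21.2 FPKM in bLF and 15.1 to 16.2 in control, had a log2 fold change of 0.40 ± 0.29.

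With LPS given on a background of bLF (LPS+bLF versus bLF), 0 members and 0 genes (0.0%) were called by edgeR, 0 members had an unadjusted p under 0.05 (1.65% of genes higher and 1.02% lower), and DESeq2 called 0 members and 2 genes (0.0146%). The medians were -0.30 for Ifit and Oas genes, where 9 of 10 read lower (6589 of all 13735 tested genes), and -0.00 for GTPases. Iigp1 had the smallest p, at 0.64 ± 0.33 (adjusted p = 1.0), with every LPS+bLF library above every bLF library. The same held for Dhx58, Trim30a and Cmpk2 (6.1% of genes), and Ifit1 was lower without overlap (6.53%). These 5 also stood apart on the FPKM scale, where Oas3 joined Ifit1. Dhx58, which modulates RNA sensing, read 4.95, 5.25 and 5.28 FPKM in LPS+bLF and 4.43, 4.04 and 3.37 in bLF (0.42 ± 0.27). Ifit1 (-0.43 ± 0.23) and Ifit3 (-0.27 ± 0.25) led those that read lower.

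The interaction, which is the difference that bLF made with LPS minus the difference it made without LPS, was called for 0 members and 0 genes (0.0%) by edgeR and for 0 members and 1 gene (0.00728%) by DESeq2. Oas1a (-1.03 ± 0.44) and Oas1g (-1.84 ± 0.81) had an unadjusted p under 0.05 (1.54% of genes lower and 1.26% higher), with adjusted p values of 1.0. For Oas1a the mean was 7.19 ± 2.96 FPKM (SD, n = 3) in control, 16.0 ± 7.22 in LPS, 11.5 ± 0.301 in bLF and 12.6 ± 1.78 in LPS+bLF. Ifi35 (0.20 ± 0.18) and Cmpk2 (0.78 ± 0.75) had the smallest p in the other direction. The median was -0.46 over Ifit and Oas genes and 0.14 over GTPases. Without LPS replicate 1 these became -0.72 and -0.27, 6 members (Zbp1, Irf7, Oas2, Oas1g, Oas3 and Oas1a) read lower at an unadjusted p under 0.05 (1.76% of genes, with 1.63% higher), and 0 were called by edgeR. Without LPS replicate 3 the medians were -0.00 and 0.70.

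Set against each other in each library, the 2 arms moved in the same order in the LPS group and apart in size. The mean of the Ifit and Oas genes, on the log2 scale relative to control, was -0.98, 0.25 and 0.97 in the LPS libraries, and that of the GTPases was -1.62, 0.04 and 0.73. The first minus the second was 0.64, 0.21 and 0.24 in LPS, -0.27, -0.04 and 0.32 in control, 0.23, 0.32 and 0.27 in bLF, and -0.01, -0.17 and -0.00 in LPS+bLF. The bLF values lay in the upper part of the range of the controls and the LPS+bLF values below all bLF values. With Ifi47, a further IRG GTPase, added to the second arm the LPS values became 0.67, 0.21 and 0.21.

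**Figure D4:**
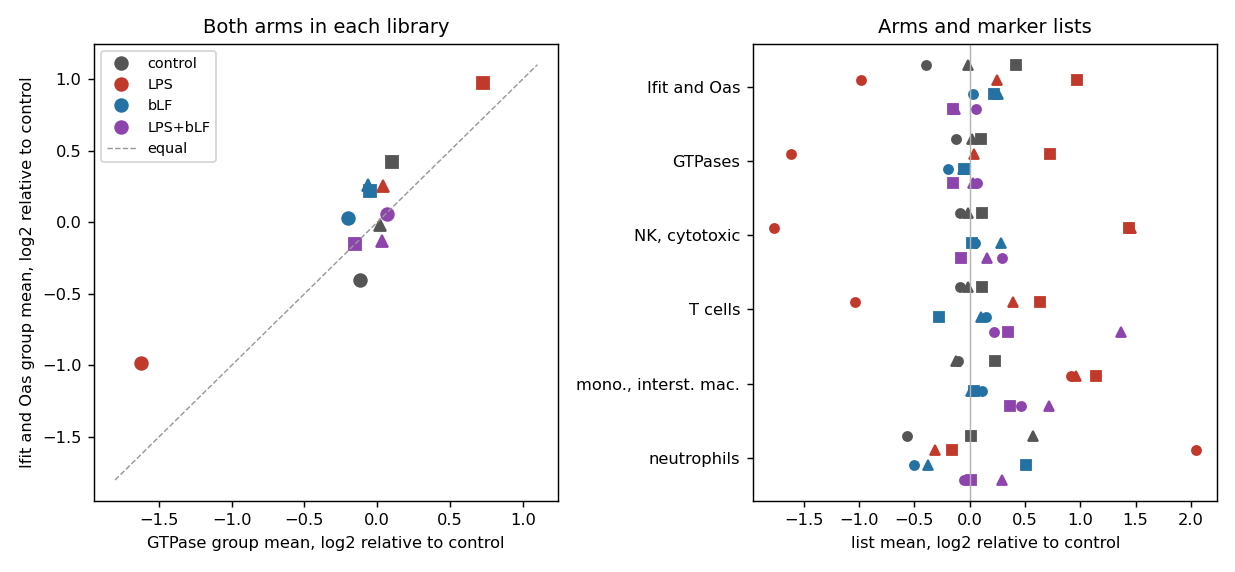
Left, the mean of the 10 Ifit and Oas genes against the mean of the 9 GTPases in each library, both log2 relative to control, with a dashed line of equality; right, the same means beside those of 4 lists of cell markers. Symbols are replicates and colours groups. LPS replicate 1 (circle) is lowest for both arms and for NK and cytotoxic markers and highest for neutrophil markers.

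Correlations (r) between members were taken across the 12 libraries on log2 levels from which the mean of each group had been subtracted. The median r between pairs of GTPases was 0.89 (36 pairs), between pairs of Ifit and Oas genes 0.56 (45 pairs) and between the arms 0.69 (90 pairs). These are descriptions, since members share the same 12 libraries and their depth. Without LPS replicate 1 the medians were 0.48, 0.57 and 0.49, so the higher median among GTPases rested on that library.

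Genes up- and downstream of the interferons were also counted by list. In LPS versus control 0 genes of the lists were called by edgeR. Of 18 tested sensors of nucleic acid and LPS, 7 had an unadjusted p under 0.05 and read higher (5.52% of all tested genes), and without LPS replicate 1 there were 5 (3.83%). They were led by Unc93b1, which carries Toll-like receptors to endosomes, at 38.7 to 59.5 FPKM in control and 86.3, 86.2 and 82.3 in LPS (0.79 ± 0.16, adjusted p = 0.151 by edgeR). Tlr8 was higher by 1.27 ± 0.37 (adjusted p = 0.448). Unlike most members, both genes were high in LPS replicate 1 too. Of 10 genes of MHC class I loading and the immunoproteasome, 3 read higher at that p, and 4 without LPS replicate 1, with Psmb8 at 0.68 ± 0.16 (adjusted p = 0.243) and Tap1 at 0.77 ± 0.22 (adjusted p = 0.435).

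The chemokines that interferons induce went 2 ways in LPS replicate 1. Cxcl10 read 0.28, 1.49 and 0.46 FPKM in control, 5.23, 1.56 and 2.43 in LPS, and 0.46, 0.60 and 0.92 in LPS+bLF. Its log2 fold change was 2.13 ± 0.76 in LPS versus control (adjusted p = 0.625 by edgeR) and -2.31 ± 0.77 in LPS+bLF versus LPS (adjusted p = 0.689). With LPS replicate 1 left out these were 1.32 ± 0.71 (adjusted p = 1.0 by edgeR) and -1.5 ± 0.71 (adjusted p = 0.516). Ccl5, also a product of cytotoxic lymphocytes, read 56.8, 65.0 and 79.7 FPKM in control and 14.6, 321 and 307 in LPS. Ccl5 stood at 1.65 ± 0.72 with an adjusted p of 0.684, and without LPS replicate 1 it was called by edgeR at 2.18 ± 0.31 (adjusted p = 0.0319). Of 17 receptor and JAK-STAT genes, 1 read higher at an unadjusted p under 0.05, Stat3, at 0.58 ± 0.24 (adjusted p = 0.665 by edgeR), where 5.52% of all tested genes did. None of the 17 did when LPS replicate 1 was left out (0 genes). In LPS+bLF versus LPS the smallest p of this list was that of Ptpn6, at 0.73 ± 0.32 (adjusted p = 0.689 by edgeR).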

How the data were processed

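Whole-lung RNA of 12 mice was analysed in 4 groups of 3. The submitters' processing notes name HISAT2 2.1.0, RSEM 1.2.8 and mm10 without saying what each did. The deposited tables hold, per the file headers, a count and an FPKM for each gene. The deposited counts were read here to be expected counts of the kind RSEM gives, because 4.1 to 5.9% of them were not whole, and they were rounded. FPKM values, scaled to transcript length and library size, were used as the authors deposited them, and strand use in counting is not given in the sources used here.

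Genes reaching 0.5 FPKM in 3 or more libraries were fitted with edgeR 4.0.16 (R 4.3.3), TMM factors, 1 mean per group and 8 residual degrees of freedom. Tests were two-sided quasi-likelihood tests with Benjamini-Hochberg adjustment over 13735 genes and a threshold of 0.05, and the SE was derived from the F statistic. The common biological coefficient of variation was 0.352. Each library is labelled as 1 mouse of its group, and p-values measure the spread between these mice.

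The code was tested on simulated counts. Alternatives used DESeq2 1.42.0, limma 3.58.1 on log2(FPKM + pseudocount), other factors and filters, a fit of only the groups compared, a replicate block, and each library left out. The orders and overlaps on FPKM and the spread without LPS replicate 1 were added after seeing the data. The members and lists were chosen with earlier results of these data known. Members named are a fixed set of 15 with values, the 2 with the smallest p in each direction of each comparison, and up to 2 genes of each pathway list; Xaf1, Rtp4, Gbp6, Ifit3b, Rsad2, Oas2, Zbp1, Trim30a and the marker genes were named after their values were seen. Some genes that the rule names are not reported here.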

Additional observations from a re-analysis of the deposited data

How the results depend on the processing

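With edgeR and limma, 0 members were called in each of the 5 comparisons under every alternative run, leave-one-out fits and the replicate block included (0 with the replicate block). DESeq2 called 1 member in LPS versus control and 0 in the other 4. Leaving out 1 library at a time, the median log2 fold change of the GTPases ranged from -0.70 to 0.42 in LPS versus control, from -0.41 to 0.59 in LPS+bLF versus LPS, from -0.03 to 0.14 in LPS+bLF versus bLF, and from -0.16 to 0.02 in bLF versus control. That of the Ifit and Oas genes ranged from -0.21 to 0.40 in LPS versus control, from -0.69 to 0.10 in LPS+bLF versus LPS and from -0.03 to 0.47 in bLF versus control. The interaction over all members ranged from -0.32 to 0.52, the upper end without LPS replicate 3. The Ifit and Oas median in LPS+bLF versus bLF was -0.30 and became -0.12 with limma at a pseudocount of 5; the cause was not tested. Equal replicate numbers did not pair the mice: 7 of 18 such pairs had a correlation over 0.1, and 2 of 12 libraries correlated best with their own number. Depth was even and a count of 0 allowed up to 0.168 to 0.179 CPM.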

Other observations

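Interferon-induced genes outside the 42 were also counted. Of 50 listed, 40 were tested, and in LPS versus control 20 read higher and 20 lower, with 5 higher at an unadjusted p under 0.05 (5.52% of all tested genes) and 0 called by edgeR. Without LPS replicate 1, 30 read higher and 10 lower, with 8 higher at that p (3.83%). Slfn2, a growth regulator of immune cells, read 28.1, 21.1 and 29.8 FPKM in control and 71.1, 38.1 and 39.7 in LPS (1.04 ± 0.29, adjusted p = 0.405 by edgeR). Apol9b read 1.52, 0.77 and 1.37 FPKM in control and 2.53, 2.53 and 4.84 in LPS (1.43 ± 0.40, adjusted p = 0.414 by edgeR). Both were high in all 3 LPS libraries, LPS replicate 1 included.

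Of the other GTPases of these families 10 were tested, 5 read higher and 5 lower with a median of -0.02, and 0 had an unadjusted p under 0.05 or were called by edgeR. Without LPS replicate 1, 9 read higher, and the median was 0.41. Gbp2b read 9.35, 8.62 and 11.3 FPKM in control and 1.57, 8.63 and 11.6 in LPS. Tgtp1 read 0.65, 2.01 and 1.41 FPKM in control, and in LPS it was listed at 0 in replicate 1 and read 1.95 and 5.22 in replicates 2 and 3. B2m, the light chain of MHC class I, which nearly every cell makes, read 63.7 FPKM in LPS replicate 1 and 283 to 881 in the other 11 libraries; it was named after its values were seen.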
